A study of Homo sapiens with 6 samples.

Results

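The alpha and beta tubulin isotypes are the 10 genes TUBA1A, TUBA1B, TUBA1C and TUBA4A (alpha) and TUBB, TUBB2A, TUBB2B, TUBB3, TUBB4B and TUBB6 (beta). They were chosen by gene name among the 58825 genes of the table, and each name belonged to 1 identifier. All 10 were among the 17774 genes tested, those whose mean FPKM (fragments scaled to transcript length and library depth) reached 0.1. The RNA-seq samples, 6 in all, were from PANC-1, an established human line of pancreatic carcinoma cells. MA PANC-1 1 to 3 received 40 μM maslinic acid (MA), a plant triterpene, for 24 h, and PANC-1 1 to 3 are labelled untreated (0 μM MA by the study's RNA-seq methods, while its general culture methods give 0.1% DMSO as the control for MA). All come from a single line and are described as 3 biological replicates per group. Estimated counts totalled 56978375, 63984133 and 58181114 for the treated samples 1, 2 and 3, and 70275355, 65607669 and 59422939 for the untreated samples 1, 2 and 3. The labels do not name separate cultures, so p-values measure the spread between these samples.

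Microtubules are hollow polymers of alpha and beta tubulin dimers that build the mitotic spindle and carry transport along the cytoplasm. Vertebrates encode several isotypes of each subunit. They are very alike over the folded body and differ most in a short acidic tail at the carboxyl end, the place where enzymes add glutamate chains and, in alpha tubulin, remove or restore the last tyrosine. Cells also set tubulin mRNA levels by autoregulation: excess soluble dimer leads to decay of tubulin mRNA during translation, through recognition of the first residues of the new chain by TTC5, which acts with SCAPER and the CCR4-NOT deadenylase. TUBA1A, TUBB2A, TUBB2B and TUBB3 are best known from neurons, TUBB and TUBA1B are widely used in dividing cells, and TUBB6 is a broadly expressed, divergent beta isotype.

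The ends of the coding sequences show how the isotypes differ and how close they are for read assignment. Below are the last 20 codons and the stop codon of 4 beta isotypes, taken from the GENCODE release 29 transcripts, with glutamate codons in capitals.
TUBB: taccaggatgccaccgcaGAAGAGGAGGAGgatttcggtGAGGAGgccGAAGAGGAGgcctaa
TUBB2A: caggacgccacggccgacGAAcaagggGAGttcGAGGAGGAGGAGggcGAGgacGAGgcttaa
TUBB2B: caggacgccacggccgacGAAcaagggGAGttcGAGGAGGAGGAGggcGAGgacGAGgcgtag
TUBB6: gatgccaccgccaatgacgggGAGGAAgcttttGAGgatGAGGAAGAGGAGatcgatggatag
TUBB2A and TUBB2B differ here only after the last glutamate codon, and each has 8 glutamate codons. The tail of TUBB6 holds 7 glutamate codons, the fewest of the 6 beta isotypes, and that of TUBB4B holds 10.

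Over the whole coding sequence, the 4 alpha isotypes were identical at 84.4% to 97.2% of bases and the 6 beta isotypes at 80.9% to 98.1%. The closest pairs were TUBB2A with TUBB2B (98.1%) and TUBA1A with TUBA1B (97.2%). TUBB6 shared 80.9% of its bases with TUBB and 87.5% with TUBB3. Reads were 150 bases long, and the share of 150-base stretches of a transcript that also occur letter for letter in another gene was 0% for TUBB6, TUBB4B and TUBA4A and 2.50% for TUBB. It was 7.02% for TUBA1A, 6.77% for TUBA1C and 19.1% for TUBA1B. It was 49.4% for TUBB2A and 39.4% for TUBB2B, mostly with one another, so the division of reads within that pair is uncertain. TUBB3 shared 88.7%, all of it with AC092143.1, a gene annotated over it on the same strand that was listed with 186 estimated counts in MA PANC-1 1 and 0 in the other 5 samples.

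The label of the cell line was compared with marker genes. The epithelial keratins KRT8 and KRT18 were at 141 to 225 FPKM and 278 to 338 FPKM, and the mesenchymal filament gene VIM was at 521 to 754 FPKM. The other mesenchymal markers were lower, CDH2 at 12.2 to 17.3 FPKM and FN1 at 0.329 to 0.835 FPKM. KRT19 reached at most 0.109 FPKM and EPCAM at most 0.132 FPKM in a sample, so these defining epithelial markers were near 0. CDH1 lay between 0.778 and 1.28 FPKM and KRT7 between 1.40 and 2.19 FPKM. Among 7 neuronal markers, RBFOX3, ELAVL3, ELAVL4 and INA reached at most 0.0503 FPKM. The most abundant by group mean, SYP, lay between 1.86 and 2.02 FPKM, SYN1 between 1.06 and 2.17 FPKM, and SNAP25 between 1.39 and 1.83 FPKM. The 7 summed to between 4.81 and 5.72 FPKM per sample. The leukocyte, endothelial, acinar and endocrine markers PTPRC, PECAM1, PRSS1, CPA1, CHGA and INS summed to at most 0.0280 FPKM in a sample. None of the 10 marker genes that could be tested passed an unadjusted p of 0.05 between the groups by edgeR.

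In untreated PANC-1 the 10 isotypes spanned nearly 3 orders of magnitude on the FPKM scale, which is per length and allows genes to be compared. The order from high to low was TUBB, TUBA1B, TUBB4B, TUBA1C, TUBA1A, TUBB3, TUBB2A, TUBB6, TUBB2B and TUBA4A. Mean FPKM was 936 for TUBB, 885 for TUBA1B, 477 for TUBB4B and 344 for TUBA1C, and these 4 genes carried most of the tubulin mRNA. TUBA1A stood at 95.6 FPKM, and the remaining 5 genes ranged from 36.4 (TUBB3) to 1.04 (TUBA4A). Neighbours in this order were separated in all 3 untreated samples, except TUBB3 from TUBB2A and TUBB2A from TUBB6, whose values overlapped. Together the 10 isotypes took 1.09% to 1.14% of the estimated counts of an untreated library and 1.13% to 1.28% of those of a treated one.

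**Figure D1:**
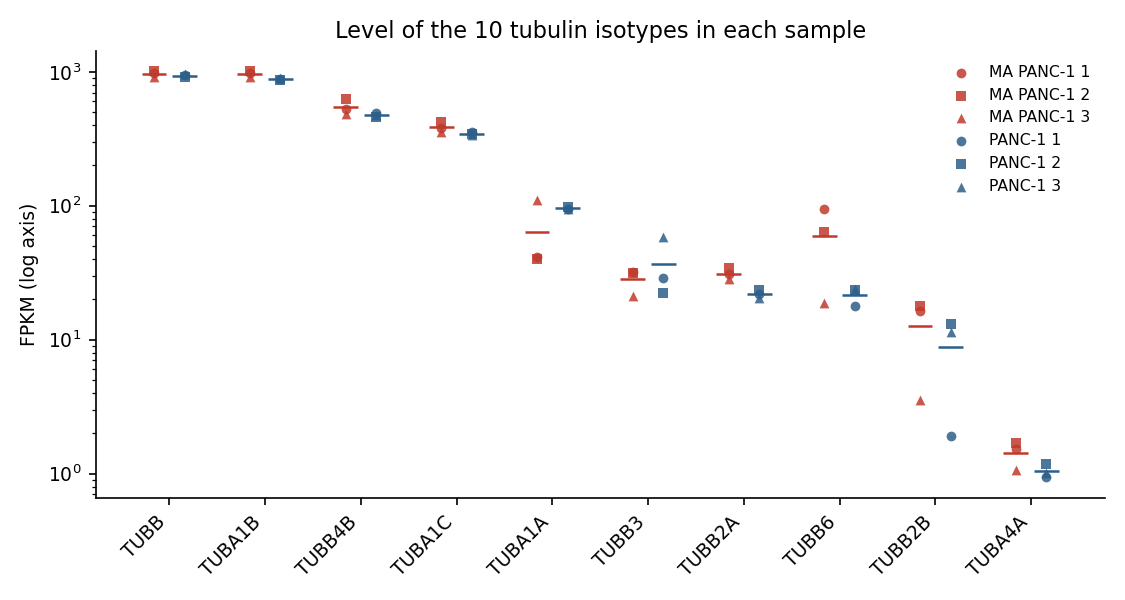
FPKM (log axis) of each isotype in the 3 MA PANC-1 samples (red) and the 3 PANC-1 samples (blue), with marks by replicate number and a bar at each group's mean. In MA PANC-1 1 and 2, TUBA1A is below and TUBB6 above the untreated samples, in MA PANC-1 3 TUBA1A is above them and TUBB6 among them, while the 4 abundant isotypes differ little between the groups.

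MA treatment was compared with no treatment to see which isotypes changed. In such bulk samples a change in the mix of cells and a change in RNA per cell cannot be told apart. TUBB6 was the single isotype called a differentially expressed gene (DEG) by the study's thresholds (2-fold or more up, or down to 0.5 or less, with an unadjusted p under 0.05). Among all tested genes 0.675% were DEGs higher after MA and 1.25% were DEGs lower, and of the isotypes 1 was higher and 0 were lower. None of the 10 passed an adjusted p of 0.05 by edgeR's quasi-likelihood test, which 0.0394% of the tested genes did. DESeq2 called 1 isotype, TUBB2A, at an adjusted p of 0.0331, and 1.8% of the 14623 genes it gave an adjusted p. At an unadjusted p under 0.05, 2 isotypes were higher (TUBB2A and TUBB6; background 5.37%) and 0 were lower (background 5.86%). In 3 isotypes (TUBA1B, TUBA1C and TUBB2A) all MA samples lay above all untreated samples in FPKM (background 8.79%), and in 0 they lay below (background 11.1%). The log2 fold change was positive in 8 of 10 isotypes, with a median of 0.22 beside -0.00 over all tested genes.

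Among the alpha isotypes, TUBA1A (ENSG00000167552, chr12:49184795-49189080, minus strand) had the widest spread. Its FPKM was 41.4, 39.8 and 111 in MA PANC-1 1, 2 and 3, and 95.1, 97.2 and 94.6 in PANC-1 1, 2 and 3. MA PANC-1 1 and 2 were far below the untreated samples, whose coefficient of variation was 1.40%, and MA PANC-1 3 was above all of them. The estimated counts behind these values were 8903, 9685 and 24527 after MA, and 25354, 24207 and 21287 without. Over the 6 samples the log2 fold change was -0.56 ± 0.37 (SE, n = 3 per group), with an adjusted p of 0.570 by edgeR. Leaving out each library in turn, the fit without MA PANC-1 3 gave -1.18 ± 0.084 (SE), a fold change of 0.442, with an adjusted p of 0.0249 by edgeR. Without MA PANC-1 1 it was -0.32, and without MA PANC-1 2 it was -0.33, neither past the unadjusted threshold. In the fit without MA PANC-1 3, TUBA1A was 1 of 7 genes past the adjusted threshold (0.0394% of those tested) and a DEG lower after MA (2.26% of those tested).

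TUBA1B (ENSG00000123416, chr12:49127782-49131395, minus strand), the most abundant alpha isotype, was at 982, 1008 and 913 FPKM after MA and at 890, 870 and 896 FPKM without. All MA samples were above all untreated ones by a small margin. The log2 fold change was 0.17 ± 0.092 (SE), with an adjusted p of 0.510 by edgeR, and it was 0.096 without MA PANC-1 2. TUBA1C (ENSG00000167553, chr12:49188736-49273166, plus strand), the second most abundant, had FPKM values of 383, 418 and 356 after MA and 352, 342 and 336 without. The groups again did not overlap, and the log2 fold change was 0.21 ± 0.11 (SE, edgeR adjusted p 0.493), or 0.10 without MA PANC-1 2. By the deposited positions the start of TUBA1C lies within TUBA1A on the other strand. How strand was used in counting is not given, and an effect of this overlap on the counts of either gene was not tested. TUBA4A (ENSG00000127824, chr2:219249710-219277876, minus strand) was low throughout, at 1.52, 1.68 and 1.07 FPKM after MA and 0.936, 1.18 and 1.01 FPKM without. MA PANC-1 3 lay among the untreated samples and the other MA samples above them (log2 fold change 0.49 ± 0.24, SE; edgeR adjusted p 0.480), with 0.31 without MA PANC-1 2.

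The beta isotype TUBB6 (ENSG00000176014, chr18:12307669-12344320, plus strand) varied over the same libraries as TUBA1A and in the opposite direction. The study had named it among its DEGs from these samples, so the call is not independent evidence. The study also reports qRT-PCR of TUBB6 with a trend like that of its RNA-seq. It lists TUBB6 protein as significantly lower after MA, opposite to the mRNA. The FPKM of TUBB6 was 95.3, 63.2 and 18.7 in MA PANC-1 1, 2 and 3, and 17.8, 23.3 and 24.1 in PANC-1 1, 2 and 3. MA PANC-1 1 and 2 were above every untreated sample and MA PANC-1 3 was inside their range. The log2 fold change was 1.48 ± 0.51 (SE), with an unadjusted p of 0.0227 and an adjusted p of 0.429 by edgeR. Without MA PANC-1 3 it was 1.91 ± 0.19 (SE), a 3.77-fold change, with an adjusted p of 0.0671 by edgeR, and TUBB6 was then a DEG higher after MA along with 0.748% of tested genes. Without MA PANC-1 1, it was 0.997 and no longer passed the unadjusted threshold, so the call was lost. The call was also lost without MA PANC-1 2 (1.39), PANC-1 1 (1.36) or PANC-1 2 (1.54), and with both limma fits (1.16 and 1.14).

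TUBB2A (ENSG00000137267, chr6:3153666-3157544, minus strand) had the smallest p-value of the family. Its FPKM was 30.7, 34.2 and 28.4 after MA and 21.9, 23.3 and 20.6 without. Every MA sample, MA PANC-1 3 included, was above every untreated sample. The log2 fold change was 0.55 ± 0.13 (SE), with an unadjusted p of 0.00355 and an adjusted p of 0.375 by edgeR. Its near copy TUBB2B (ENSG00000137285, chr6:3224277-3231730, minus strand) varied widely within both groups, at 16.5, 17.8 and 3.53 FPKM after MA and 1.92, 13.1 and 11.3 FPKM without. One library of each group, MA PANC-1 3 and PANC-1 1, was far below the others, and the log2 fold change of 0.57 ± 0.78 (SE; edgeR adjusted p 0.797) was smaller than its error. With the counts of the pair summed, the log2 fold change was 0.55 ± 0.26 (SE), with an unadjusted p of 0.0683 and an adjusted p of 0.469 by edgeR, so the unadjusted call on TUBB2A did not hold for the pair. TUBB2BP1, which shares stretches with both, was not in that sum. It was a DEG higher after MA, with a log2 fold change of 8.45 ± 2.46 (SE, unadjusted p 0.0174 and adjusted p 0.416 by edgeR). Its level in each sample is not reported here, and with so large an SE the size of this change is uncertain.

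The abundant beta isotypes moved little. TUBB (ENSG00000196230, chr6:30720352-30725426, plus strand) was at 972, 1012 and 922 FPKM after MA and at 940, 910 and 958 FPKM without. These ranges overlapped, and the log2 fold change was 0.09 ± 0.092 (SE; edgeR adjusted p 0.723), or 0.014 without MA PANC-1 2. TUBB4B (ENSG00000188229, chr9:137241287-137243707, plus strand) was at 528, 632 and 482 FPKM after MA and at 494, 457 and 480 FPKM without, with a log2 fold change of 0.24 ± 0.14 (SE; edgeR adjusted p 0.517) that was 0.081 without MA PANC-1 2. TUBB3 (ENSG00000258947, chr16:89921392-89938761, plus strand), the class III isotype of neurons and many tumours, was at 32.0, 31.7 and 21.0 FPKM after MA and at 28.9, 22.2 and 58.3 FPKM without. PANC-1 3 was higher than all other samples. The log2 fold change of TUBB3 was -0.32 ± 0.36 (SE; edgeR adjusted p 0.744), and it was 0.19 without PANC-1 3.

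**Figure D2:**
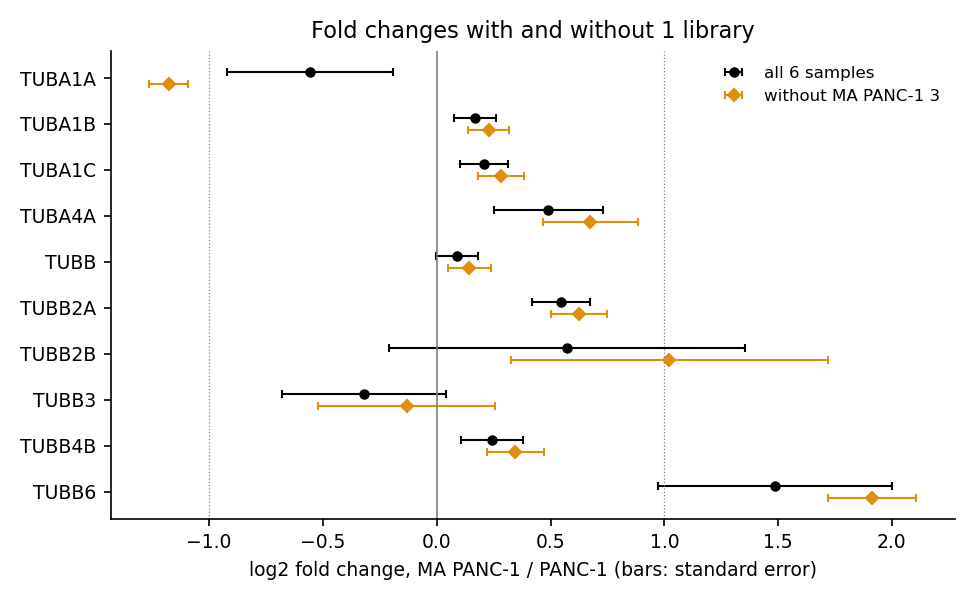
Fitted log2 fold change of each isotype (MA PANC-1 over PANC-1) with its standard error, over all 6 samples (black) and without MA PANC-1 3 (orange); dotted lines mark a fold change of 2 and 0.5. TUBA1A moves from -0.56 to -1.18 and TUBB6 from 1.48 to 1.91 when that library is left out, with smaller standard errors.

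At an unadjusted p under 0.05, 6 isotypes were higher without MA PANC-1 3 (TUBA1B, TUBA1C, TUBA4A, TUBB2A, TUBB4B and TUBB6), where 8.39% of all tested genes were. TUBA1A was lower in that fit, as given above. Over all 6 samples 2 isotypes were higher (background 5.37%), and 1 or 2 were when another sample was left out. MA PANC-1 3 differed from the other treated libraries over the transcriptome too. On the first principal component (26.4% of the variance) it scored 16.2, beside -29.5 and -73.6 for MA PANC-1 1 and 2 and between 18.1 and 44.9 for the untreated samples. In 6748 genes MA PANC-1 1 and 2 were both above or both below all untreated samples, and in 34.2% of these MA PANC-1 3 was within the untreated range. The same share was 19.3% when MA PANC-1 1 was the library set aside and 18.3% for MA PANC-1 2. MA PANC-1 3 did go with the treated libraries in other genes: ADNP, a chromatin protein gene, was at 14.3, 13.1 and 14.7 FPKM after MA and at 3.40, 3.78 and 2.75 FPKM without. AK4, a mitochondrial adenylate kinase gene, was at 3.96, 4.37 and 3.95 FPKM after MA and at 15.7, 14.3 and 11.2 FPKM without. Both genes passed the adjusted threshold by edgeR with MA PANC-1 3 in the fit (0.00735 for ADNP and 0.0257 for AK4). They were chosen after their values were seen, so their agreement is not independent evidence about that library. What set MA PANC-1 3 apart was not tested.

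The make-up of each family was compared through the share of each isotype in the summed FPKM of its family. TUBA1A made up 2.94%, 2.71% and 8.04% of alpha FPKM in MA PANC-1 1, 2 and 3, and 7.10%, 7.42% and 7.13% in PANC-1 1, 2 and 3. TUBB6 made up 5.69%, 3.53% and 1.27% of beta FPKM in MA PANC-1 1, 2 and 3, and 1.18%, 1.61% and 1.55% in PANC-1 1, 2 and 3. For both genes the shares overlapped between the groups only through MA PANC-1 3. TUBB accounted for 58.0%, 56.5% and 62.5% of beta FPKM after MA, and for 62.5%, 62.8% and 61.7% without. TUBB2A was the single isotype whose shares did not overlap, at 1.84%, 1.91% and 1.93% after MA and 1.45%, 1.61% and 1.33% without (exact permutation test, two-sided, p = 0.1, the smallest that 3 samples against 3 allow). The adjusted p over the 10 shares was 0.5 for each of them in these exact tests, so none passed, and the design could not reach the threshold.

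**Figure D3:**
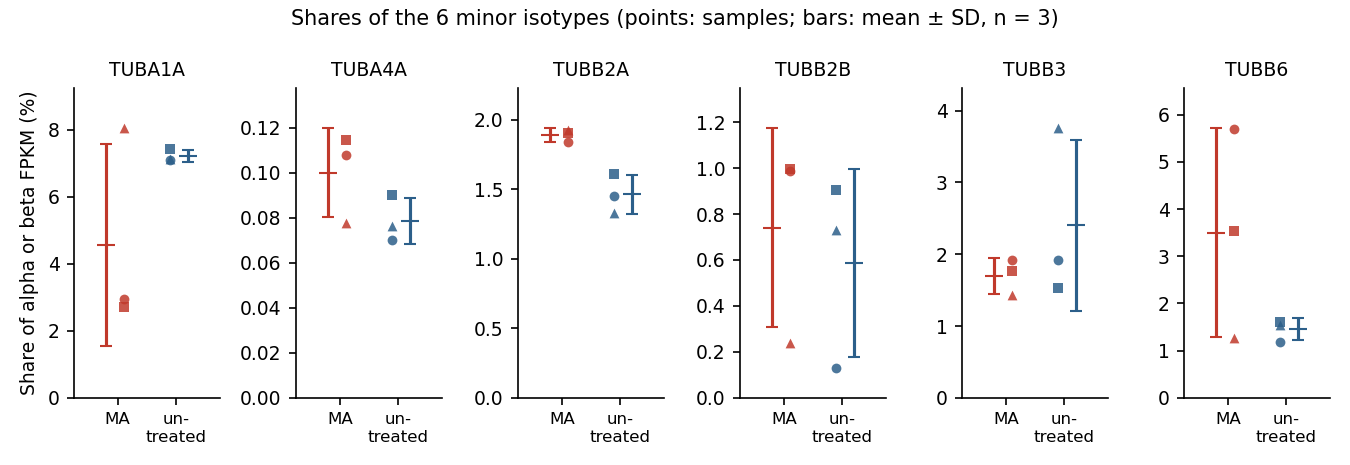
Share (%) of alpha or beta FPKM taken by each of the 6 isotypes below 10%, as points for the 3 MA PANC-1 (red) and 3 PANC-1 (blue) samples with the mean ± SD beside them; each panel has its own axis from 0. TUBA1A is near 3% in MA PANC-1 1 and 2 and 8.04% in MA PANC-1 3, against about 7% untreated, and TUBB2A is higher in all 3 treated samples.

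The 4 alpha isotypes summed to 1419 ± 44.4 FPKM after MA and 1326 ± 14.4 FPKM without (SD, n = 3 each), a ratio of 1.07, and the groups did not overlap (exact permutation test, two-sided, p = 0.1). The 6 beta isotypes summed to 1647 ± 159 FPKM after MA and 1502 ± 51.7 FPKM without, a ratio of 1.10 with overlapping groups (exact permutation test, p = 0.3). The difference in the beta total was 145 FPKM, and it was 72.7 FPKM without MA PANC-1 2 and 230 FPKM without MA PANC-1 3. The ratio of alpha to beta FPKM was 0.866 ± 0.0620 after MA and 0.883 ± 0.0251 without (exact permutation test, p = 0.7). The low TUBA1A of MA PANC-1 1 and 2 was a small part of the alpha total. With TUBA1A, TUBA1B and TUBA1C summed, the log2 fold change was 0.15 ± 0.089 (SE; edgeR adjusted p 0.544).

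The promoters of TUBA1A and TUBB6 are shown because these genes stood apart from the untreated samples in the same libraries. Each window runs from 250 bases before to 50 after a transcription start in RefSeq (GRCh38.p14), on the gene's own strand, and capitals mark matches to CCAAT or GGGCGG on either strand.
TUBA1A, chr12:49189031-49189330, minus strand: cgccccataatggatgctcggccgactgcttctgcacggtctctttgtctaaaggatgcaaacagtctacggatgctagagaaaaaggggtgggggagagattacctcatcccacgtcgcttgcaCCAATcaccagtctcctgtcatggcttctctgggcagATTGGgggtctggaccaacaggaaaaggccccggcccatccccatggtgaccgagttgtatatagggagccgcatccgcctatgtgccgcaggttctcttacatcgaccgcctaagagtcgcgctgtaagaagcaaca
TUBB6, chr18:12307991-12308290, plus strand: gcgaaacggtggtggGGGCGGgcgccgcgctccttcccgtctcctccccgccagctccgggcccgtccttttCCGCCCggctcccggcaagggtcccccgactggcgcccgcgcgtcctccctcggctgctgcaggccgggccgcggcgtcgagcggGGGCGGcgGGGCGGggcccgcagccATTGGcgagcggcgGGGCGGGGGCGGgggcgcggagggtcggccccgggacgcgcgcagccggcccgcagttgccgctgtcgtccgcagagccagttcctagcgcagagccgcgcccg
The TUBA1A window holds 2 CCAAT matches and 0 GGGCGG matches, and the TUBB6 window holds 1 CCAAT match and 6 GGGCGG matches. RefSeq lists a further TUBB6 window, at chr18:12307419-12307718, with 0 matches to either. Of all 35116 promoter windows, 34.61% held CCAAT and 44.95% held GGGCGG. All 10 isotypes had a window, 15 in all. CCAAT was in 9 of these 15 windows, GGGCGG in 9, and TATAAA, which 11.53% of all windows hold, in 1. By gene, 7 of the 10 had CCAAT, 8 had GGGCGG and 1 had TATAAA. The backgrounds are by window, and genes with several windows have more chances of a match, so they do not apply to the counts by gene. Overlapping windows of TUBA1C hold the same CCAAT site, so the count by window includes it more than once. These are matches of letters, not evidence of binding.

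The genes whose pattern was most like that of TUBB6 over the 6 samples were found by Pearson's r on log2 library-normalized counts among the 6442 genes whose mean FPKM was 5 or more. They were ULBP2 (a stress-induced ligand of natural killer cells, r = 0.992), EP300 (a histone acetyltransferase, 0.989), MAGT1 (a magnesium transporter, 0.981), APMAP (0.976) and HRASLS (0.976). MAGT1 was at 25.9, 20.02 and 15.2 FPKM after MA and 13.8, 14.6 and 14.6 FPKM without. ULBP2 was at 8.47, 7.24 and 5.97 FPKM after MA and 5.95, 6.17 and 6.01 FPKM without. In both genes MA PANC-1 1 was highest, MA PANC-1 2 next, and MA PANC-1 3 near the untreated samples. Among the isotypes, r with TUBB6 was lowest for TUBA1A (-0.978) and highest for TUBA4A (0.901). These values describe 6 points, of which MA PANC-1 1 and 2 stand apart from the rest, and they were picked as extremes of many genes.

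Genes that act on tubulin were counted in 8 lists holding 137 genes, 119 of them tested. None passed an adjusted p of 0.05, 0 were DEGs higher after MA and 1 was a DEG lower (backgrounds 0.0394%, 0.675% and 1.25%). DESeq2 called 1 of them at an adjusted p under 0.05, NAV3 (background 1.8%). At an unadjusted p under 0.05, 6 were higher and 8 were lower (backgrounds 5.37% and 5.86%), and in 16 each way the FPKM groups did not overlap (backgrounds 8.79% and 11.1%). The same backgrounds apply to the counts of each list. The median log2 fold change over the 119 was -0.02, beside -0.00 over all tested genes.

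The CCR4-NOT and TTC5 list of tubulin mRNA autoregulation had 0 of 12 genes higher and 2 lower at an unadjusted p under 0.05 (backgrounds 5.37% and 5.86%), and a median log2 fold change of -0.04. CNOT9, a CCR4-NOT subunit, was at 7.95, 7.42 and 13.4 FPKM after MA and at 14.9, 14.6 and 13.6 FPKM without. Like TUBA1A, it was low in MA PANC-1 1 and 2, while MA PANC-1 3 was just below the untreated samples. Its log2 fold change was -0.55 ± 0.21 (SE; unadjusted p 0.0325, adjusted p 0.432 by edgeR). SCAPER was at 0.607, 0.457 and 0.731 FPKM after MA and at 0.922, 0.796 and 0.819 FPKM without (log2 fold change -0.47 ± 0.19, SE; edgeR adjusted p 0.439). CNOT11, the most abundant gene of the list, was at 22.8 to 24.1 FPKM after MA and 22.1 to 24.2 FPKM without.

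**Figure D4:**
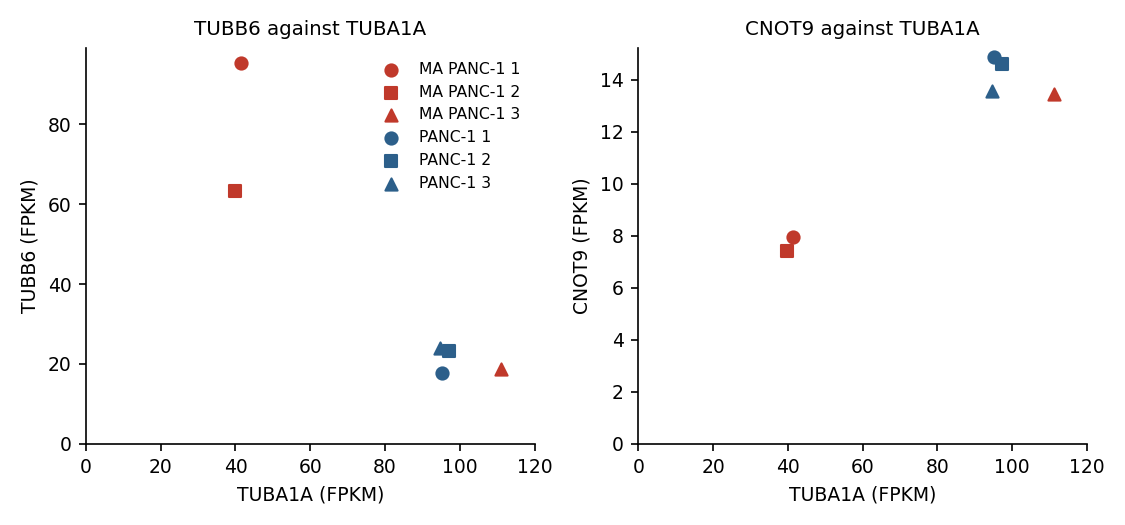
FPKM of TUBB6 (left) and of CNOT9 (right) against FPKM of TUBA1A, 1 point per sample, MA PANC-1 in red and PANC-1 in blue, all axes from 0. MA PANC-1 1 and 2 lie near 40 FPKM of TUBA1A with high TUBB6 and low CNOT9, and MA PANC-1 3 lies beside the untreated samples. CNOT9 was named for its small p-value in its list, and a link between these genes was not tested.

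Among 22 genes of tubulin folding and assembly, 1 was higher at an unadjusted p under 0.05 and 0 were lower. That gene, TBCD, a cofactor that assembles and disassembles dimers, was at 7.24, 8.86 and 6.92 FPKM after MA and 6.14, 6.35 and 6.12 FPKM without (log2 fold change 0.35 ± 0.13, SE; edgeR adjusted p 0.434). CCT7, a subunit of the chaperonin that folds tubulin, had groups that did not overlap, at 225 ± 9.13 FPKM after MA and 205 ± 1.02 FPKM without (SD, n = 3 each). CCT4, the most abundant of the list, was at 285 ± 28.9 and 263 ± 10.1 FPKM. Of 13 other tubulin genes 5 were tested and 0 passed in either direction; TUBB4A was at 5.69 ± 0.234 and 4.85 ± 0.770 FPKM, and TUBG1, the gamma-tubulin that nucleates microtubules, at 93.0 ± 11.02 and 82.4 ± 6.81 FPKM.

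Of the tubulin modifying enzymes, 21 were tested, 2 were higher at an unadjusted p under 0.05 and 0 were lower (backgrounds 5.37% and 5.86%). SIRT2, a deacetylase of alpha tubulin, was at 27.6, 32.2 and 26.4 FPKM after MA and 21.4, 22.03 and 20.2 FPKM without, above them in every MA sample (log2 fold change 0.48 ± 0.12, SE; edgeR adjusted p 0.388). TTLL5, which adds glutamate to tubulin tails, was at 2.20, 2.05 and 2.11 FPKM after MA and 1.75, 1.66 and 1.78 FPKM without (log2 fold change 0.33 ± 0.10, SE; edgeR adjusted p 0.394). The gamma-tubulin ring complex list had 0 of 14 genes past an unadjusted p of 0.05. Its smallest p-values were those of CDK5RAP2, at 6.21 ± 0.575 FPKM after MA and 7.28 ± 0.146 without, and MZT2B, at 26.6 ± 4.05 and 20.5 ± 4.02 FPKM, and the groups did not overlap in either gene.

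Among 19 tested microtubule binding and stabilising proteins, 2 were higher at an unadjusted p under 0.05 and 1 was lower (backgrounds 5.37% and 5.86%). MAP2, a microtubule-associated protein of dendrites, was at 0.668, 0.326 and 0.605 FPKM after MA and 0.259, 0.301 and 0.304 FPKM without, a low level in all samples (log2 fold change 0.91 ± 0.27, SE; edgeR adjusted p 0.388). MAP4, the main such protein of non-neuronal cells, was at 27.3, 30.6 and 27.2 FPKM after MA and 23.1, 24.6 and 22.2 FPKM without (log2 fold change 0.32 ± 0.11, SE; edgeR adjusted p 0.417). MAP7D1, the most abundant, was at 49.9 ± 7.99 and 42.6 ± 1.53 FPKM.

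Of 18 plus-end proteins, 1 was higher and 3 were lower at an unadjusted p under 0.05 (backgrounds 5.37% and 5.86%). NAV3, a plus-end tracking navigator protein, was the DEG: it was at 0.0858, 0.120 and 0.130 FPKM after MA and 0.371, 0.386 and 0.343 FPKM without. All 3 MA samples were lower, at levels near the filter, with a log2 fold change of -1.66 ± 0.23 (SE), an unadjusted p of 1.70e-04 and an adjusted p of 0.144 by edgeR. MAPRE1, which codes for the end-binding protein EB1, was at 134 ± 15.9 and 136 ± 6.26 FPKM. Of 10 tested destabilising and severing proteins 0 were higher and 2 were lower. STMN3, a stathmin that binds free dimers, was at 4.17, 4.81 and 5.15 FPKM after MA and 6.45, 6.67 and 6.24 FPKM without (log2 fold change -0.42 ± 0.13, SE; edgeR adjusted p 0.414). FIGN, a severing enzyme, was at 1.12, 0.9995 and 1.22 FPKM after MA and 1.61, 1.36 and 1.37 FPKM without (log2 fold change -0.35 ± 0.14, SE; edgeR adjusted p 0.436). STMN1, the most abundant, was at 55.0 ± 5.998 and 56.9 ± 16.2 FPKM.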

How the data were processed

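The authors deposited, for each gene and sample, an FPKM value normalized by them and a whole-number estimated count. The submitters' processing notes name cutadapt 1.9, HISAT2 2.0.4, StringTie 1.3.4d, edgeR and DESeq2; the genome build is not given in the sources used here. Of the 58552 genes with an identifier in GENCODE release 29 (GRCh38), 81.2% had the same position, so positions are given as deposited. The library kit marks strand, but how strand was used in counting is not given. The count totals are estimates, and the spread between replicates sets the precision.

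The 17774 genes whose mean FPKM reached 0.1 were tested with edgeR 4.0.16 (R 4.3.3) quasi-likelihood F tests on the estimated counts, TMM normalized, with Benjamini-Hochberg adjustment over all of them. The SE is the log2 fold change divided by the square root of F. Shares and totals were tested by exact two-sided permutation (scipy 1.17.1). The fit was tested on simulated data. Alternatives were DESeq2 1.42.0, limma 3.58.1 on log2(FPKM + 0.1) and log2(FPKM + 1), RLE size factors, other filters, halved counts, a replicate block, summed counts of close copies and leaving out each sample.

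The members and gene lists were chosen with earlier results of these data known. Named were all 10 isotypes, same-strand overlapping genes, and from each list each gene that was a DEG or passed an adjusted p of 0.05, otherwise the 2 smallest p-values, and the most abundant gene. The 5 genes most like TUBB6 were also named, as was TUBB2BP1, which shares stretches with TUBB2A and TUBB2B. ADNP and AK4 were chosen after their values were seen. The coding ends of the alpha isotypes are not reported here. Sequences came from GENCODE release 29 transcripts and RefSeq promoter windows. The transcript of an isotype was the principal one with the longest coding sequence.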

Additional observations from a re-analysis of the deposited data

How the results depend on the processing

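The log2 fold changes of the 10 isotypes kept their sign under all alternatives, except TUBB3, which was -0.58 to 0.19 on leaving out a sample (0.19 when that was PANC-1 3), and TUBA1A, which was 0.15 when its counts were summed with those of TUBA1B and TUBA1C. DESeq2 called 1 isotype, TUBB2A, at an adjusted p of 0.0331, and 263 genes in all where edgeR called 7. With limma on either FPKM scale, 0 isotypes were DEGs. Of all 17774 genes, 119 were DEGs higher and 247 lower at a pseudocount of 0.1, and 22 and 22 at 1. On either scale 1 isotype was higher at an unadjusted p under 0.05. How many of all genes passed that threshold with limma is not reported here. TUBB6 then had a log2 fold change of 1.16 with a pseudocount of 0.1 or 1.14 with one of 1, and did not pass. The list DEG lower after MA, NAV3, was lost (0 DEGs) with limma at a pseudocount of 1 and with a filter at a mean FPKM of 1, which removes NAV3 from the test. Over all 17774 genes, DEGs higher and lower fell from 120 and 222 to 22 and 22 with limma at a pseudocount of 1. They were 43 and 50 of the 11470 genes tested with the filter at 1, and 189 and 380 of the 28488 tested with no filter.

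The replicate numbers did not pair the samples: the correlations of same-numbered deviations were 0.0294, 0.0502 and 0.0724. With the number as a replicate block, 0 isotypes were DEGs (of all 17774 genes, 102 were DEGs higher and 225 lower). At an unadjusted p under 0.05, 1 isotype was higher, and the share of all genes is not reported here for this fit. TUBB6 was at 1.23 and did not pass, and 0 of all genes passed the adjusted threshold.

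Leaving out each sample in turn, isotype DEGs numbered 0 to 1 higher and 0 to 1 lower, and isotypes past the adjusted p 0 to 1. At an unadjusted p under 0.05, 1 to 6 isotypes were higher (6 without MA PANC-1 3, where 8.39% of all genes were) and 0 to 1 lower. The shares of all genes at that threshold are not reported here for the other leave-out fits, nor for genes lower in any of them. Over all 17774 genes the leave-out fits gave 106 to 152 DEGs higher and 191 to 401 lower, with 401 on leaving out MA PANC-1 3. DEGs of the 8 lists numbered 0 to 1 higher (MAP2, without MA PANC-1 2) and 1 to 2 lower (NAV3, joined by MAP9 without MA PANC-1 3). TUBB6 passed the unadjusted threshold on leaving out replicate 3 of either group, and did not on leaving out replicate 1 or 2 of either (0.997 to 1.54). On leaving out MA PANC-1 2, the log2 fold change was 0.096 for TUBA1B, 0.10 for TUBA1C, 0.31 for TUBA4A, 0.014 for TUBB and 0.081 for TUBB4B, and that of TUBB2B ranged from 0.095 to 1.02 over the samples left out. The share of TUBB2B changed by -0.079 to 0.40 percentage points, negative without PANC-1 1, and the alpha to beta ratio by -0.053 to 0.0054, positive without MA PANC-1 2. Genes past the adjusted p numbered 24 without MA PANC-1 2, 4 when MA PANC-1 1 was left out, and 3 when PANC-1 2 was. The causes were not tested. With the counts halved, isotype DEGs again numbered 1 higher and 0 lower, and DEGs over all genes 117 higher and 218 lower. TUBA4A and NAV3 rest on low values.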
